A study of Mus musculus with 9 samples.

Results

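Zinc handling in the mouse epididymis was followed through 10 genes: the metallothioneins Mt1, Mt2 and Mt3, the zinc exporters Slc30a1, Slc30a2 and Slc30a7, and the zinc importers Slc39a1, Slc39a4, Slc39a8 and Slc39a14. They were taken by name and not by a measured value, and all 10 are among the 32195 genes of the single-cell RNA-seq matrix. Its entries are unique molecular identifiers (UMIs), each standing for 1 captured transcript. The epididymis, the duct in which sperm mature and are stored, was taken from untreated wild-type C57Bl/6J mice and cut into caput, corpus and cauda. The mice were 42 days (P42) or 56 days (P56) old. A single pool of 5 mice represented P42, and 10 mice in 2 pools of 5, P56 replicate 1 and P56 replicate 2, represented P56. Each pool gave 1 library per segment, 9 in all, so the 3 segments of a pool share mice, and errors describe the spread between pooled libraries rather than between animals.

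Metallothioneins are small cysteine-rich proteins that hold zinc and copper in the cell. Mt1 and Mt2 are expressed in many tissues and are induced by metals, through the zinc-sensing transcription factor MTF1, and by glucocorticoids and stress, whereas Mt3 is best known from the brain. Slc30a (ZnT) proteins carry zinc out of the cytosol, and Slc39a (ZIP) proteins carry it into the cytosol. The epididymal epithelium, made of principal, basal and clear/narrow cells, sets the ion composition of the fluid around the sperm.

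The 3 metallothionein genes lie next to each other on the plus strand of chromosome 8 (GRCm38), Mt3 at chr8:94152607-94154146, Mt2 at chr8:94172664-94173568 and Mt1 at chr8:94179082-94180327. Their promoters are printed because Mt1 and Mt2 varied together in the data: over 77 sums of a class in a library (9 classes, without ciliated and erythroid cells), Pearson's r of log2 levels was 0.82, where the points share libraries. Mt3 is shown beside them as the neighbour whose level was highest in ciliated cells, which these sums leave out. RefSeq gives a window of 250 bases before and 50 after the transcription start (GRCm38.p6), and the bases shown run up to the RefSeq start or, for Mt1, up to the gene start given above, which lies earlier. For Mt2 the gene start given above lies after the RefSeq start. Cores beyond the stretch are shown on lines of their own. Capitals mark the core of the metal response element that MTF1 binds, searched as TGCACNC or TGCGCNC on both strands.
Mt1, chr8:94178839-94179081: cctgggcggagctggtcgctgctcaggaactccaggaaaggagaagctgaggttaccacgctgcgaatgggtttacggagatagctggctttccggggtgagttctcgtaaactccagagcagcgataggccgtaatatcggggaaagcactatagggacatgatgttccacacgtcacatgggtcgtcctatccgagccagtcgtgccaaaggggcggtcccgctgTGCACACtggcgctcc
Mt1, cores further on, chr8:94179091-94179115: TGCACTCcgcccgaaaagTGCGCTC
Mt2, chr8:94172368-94172617: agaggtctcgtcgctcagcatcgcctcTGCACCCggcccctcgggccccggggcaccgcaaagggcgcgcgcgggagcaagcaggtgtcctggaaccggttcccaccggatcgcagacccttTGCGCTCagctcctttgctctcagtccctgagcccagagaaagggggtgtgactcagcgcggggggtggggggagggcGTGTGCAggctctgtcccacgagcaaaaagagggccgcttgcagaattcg
Mt2, core further on, chr8:94172622-94172628: GTGCGCA
Mt3, chr8:94152357-94152606: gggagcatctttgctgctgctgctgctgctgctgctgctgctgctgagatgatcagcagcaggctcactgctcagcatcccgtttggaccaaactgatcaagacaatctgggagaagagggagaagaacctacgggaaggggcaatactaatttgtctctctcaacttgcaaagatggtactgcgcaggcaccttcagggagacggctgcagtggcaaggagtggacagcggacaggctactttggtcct
Mt3, core further on, chr8:94152634-94152640: TGCACAC
The whole window held 4 cores at Mt2, 3 at Mt1 and 1 at Mt3. Of the transporters, Slc30a1 and Slc30a2 had 2 each, the second of the Slc39a8 windows had 1, and the first Slc39a8 window, Slc30a7 and Slc39a1 had none of these letters. For comparison, 25.7% of 32851 RefSeq promoter windows hold at least 1 core, 7.11% at least 2 and 1.97% at least 3. A match describes the letters only. No window was used for Slc39a4 and Slc39a14.

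A total of 42087 cells of 44869 barcodes passed the filters, with 307987941 UMIs over all barcodes. The libraries held 4209 to 4910 cells, with median depths of 3088.5 UMIs per cell in P42 cauda, 3446 in P42 corpus and 4446 to 7644 in the others. Cells were sorted into classes by their UMIs from marker genes, none of which is one of the 10 genes (the limits were chosen after the marker UMIs were seen). The gates gave 18054 principal, 3787 clear/narrow, 2381 basal, 2138 fibroblast, 2051 macrophage/monocyte, 1104 erythroid, 534 endothelial, 469 smooth muscle, 460 sperm, 358 halo/T and 140 ciliated cells, the last in caput only. Such classes are ranges of a marker score rather than cell types. Of the 20 principal markers only 8 were highest in their own class, while 12 of 13 basal, all 16 clear/narrow, all 13 endothelial and all 9 ciliated markers were. P42 cauda stood apart, with 40.2% of its cells in no class against 12.8% to 22.0% elsewhere, and 143 barcodes occurred in more than 1 library.

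Levels are given as UMIs per 1000000 UMIs of a class in a library (CPM). A gene was called where edgeR's quasi-likelihood test on the summed UMIs gave an adjusted p under 0.05 over all genes and a difference of at least 1 on the log2 scale, the fold limit (for interactions, the adjusted p alone). Erythroid cells served as the comparison class for RNA from outside a cell, since red blood cells carry little besides globin transcripts. Their median globin share was 26.5%, and whether their other UMIs came from free RNA or from cells joined to them was not tested. These barcodes carried Mt1 at 2375 ± 1183 CPM (SD, n = 9), next to 2212 ± 1148 CPM in principal cells, and none of the 10 genes was called between the 2 classes (edgeR, 309 of 12719 genes called, 2.43%, 1 of the 10 at an unadjusted p under 0.05 and none called by DESeq2). Classes are therefore read against both principal cells and erythroid barcodes.

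Mt1 was abundant everywhere, with a UMI in at least 91.3% of the cells of each class, and its level was highest in 2 epithelial classes. Clear/narrow cells held 5435 ± 1604 CPM (SD, n = 9) and basal cells 4887 ± 1639 CPM, against 3079 ± 856 CPM in ciliated cells (n = 3). The other 8 classes lay between 1498 CPM in endothelial cells and 2525 CPM in smooth muscle cells. In clear/narrow cells, acid-secreting cells of the duct, Mt1 was higher than in principal cells by 1.03 ± 0.13 (log2, ± SE, edgeR adjusted p = 2.23e-10) and higher than in erythroid cells by 1.13. Basal cells, which lie at the base of the epithelium, differed from principal cells by 0.88 ± 0.13 (adjusted p = 3.21e-08), under the fold limit. The fit did not separate the 2 leading classes (0.15 ± 0.13, adjusted p = 0.445), and in a fit on the 3 caput libraries alone ciliated cells differed from basal cells by -0.31 ± 0.16 (adjusted p = 0.140) and from principal cells by 1.06 ± 0.16. The clear/narrow call is a narrow one: it fell under the fold limit, at 0.85 to 0.99, without P56 replicate 2, without mitochondrial genes, under a lower limit on mitochondrial UMIs, with no filter on low counts and without the library block.

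Mt2, the neighbour of Mt1, marked basal cells more sharply. Basal cells held 1194 ± 250 CPM (n = 9), with every library between 782 and 1520 CPM. Clear/narrow cells held 653 ± 180 CPM, ciliated cells 395 ± 98.6 CPM (n = 3) and the remaining classes 186 to 315 CPM. The lowest basal library lay above every principal library, whose range was 113 to 336 CPM. Relative to principal cells, Mt2 was higher by 2.26 ± 0.14 (log2) in basal cells, a 4.78-fold difference (adjusted p = 1.31e-24), and by 1.35 ± 0.14 in clear/narrow cells (adjusted p = 5.29e-14). Basal exceeded clear/narrow cells by 0.91 ± 0.14 (adjusted p = 4.50e-08). A UMI was seen in 96.1% of basal cells and 41.9% of erythroid cells, at median depths of 6034 and 3939.5 UMIs, and in 81.8% of basal against 23.5% of principal caput cells after each cell was thinned to 2000 UMIs (96.1% and 53.0% unthinned).

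**Figure D1:**
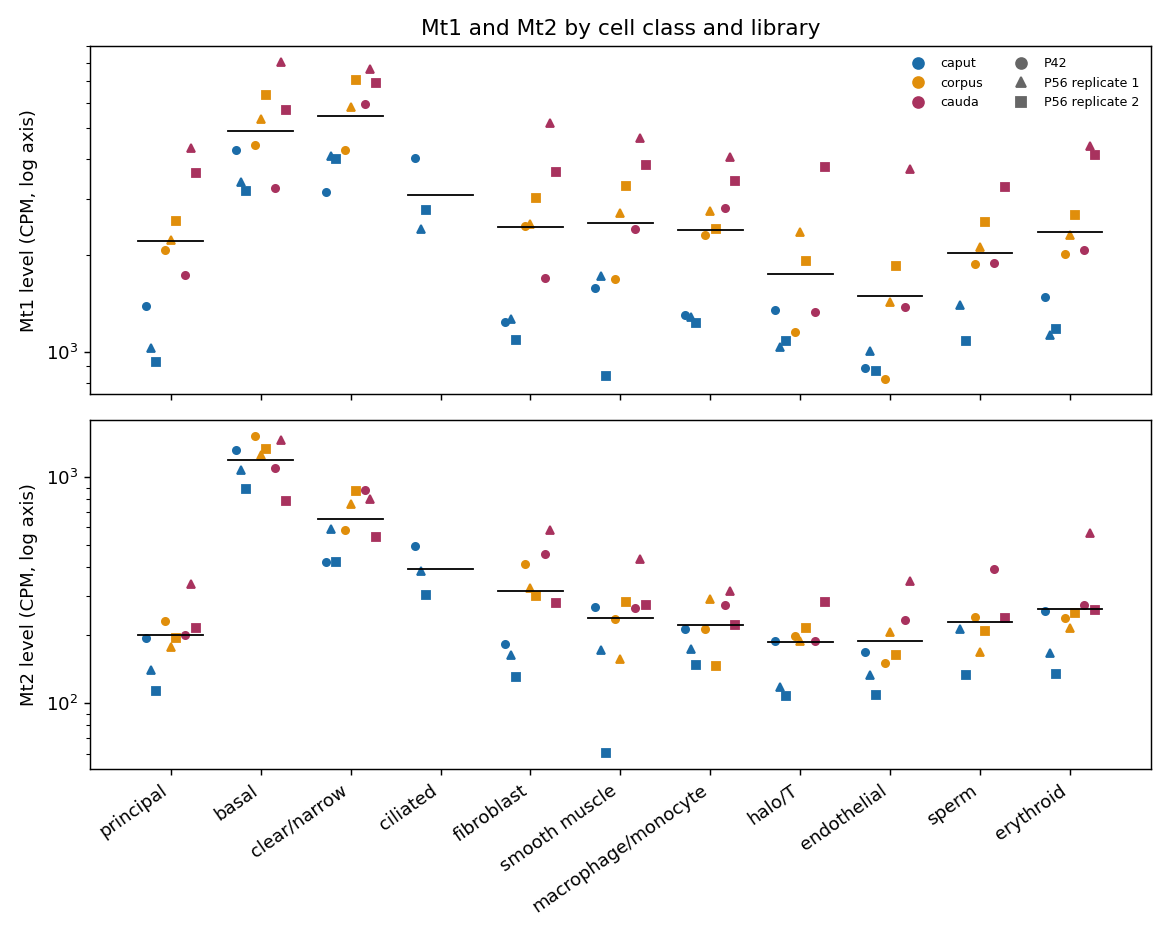
Level of Mt1 (top) and Mt2 (bottom) in each cell class, in CPM on log axes; each point is 1 library, coloured by segment and shaped by pool, and bars are class means. Basal and clear/narrow cells lie highest for both genes, and the basal Mt2 points, 782 to 1520 CPM, clear all principal points, 113 to 336 CPM.

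The balance of the 2 genes differed between classes, by most in basal cells. The ratio of Mt1 to Mt2 UMIs had a median of 3.58 over the 9 basal sums (2.92 to 7.29), of 9.0 in principal (7.14 to 16.7) and of 7.67 in clear/narrow cells. It was lower in basal than in principal cells in 9 of 9 libraries, by 2.56-fold on average (exact sign-flip test, two-sided, p = 0.00391, the smallest that 9 libraries allow, adjusted p = 0.0352 over 9 classes). The ratio was also below that of principal cells in 5 other classes, by 1.16-fold in erythroid, 1.23-fold in clear/narrow, 1.30-fold in endothelial and 1.34-fold in fibroblast cells (exact sign-flip test, adjusted p = 0.0422 for each) and by 1.18-fold in sperm cells (0.0469), and it did not pass in 3 (smooth muscle, macrophage/monocyte and halo/T cells). The test flips each library on its own, although the libraries of a pool share mice, so these p-values can be too small. Only in basal cells was the ratio lower in every library. The ratio was examined after the levels had been seen, and it is compared between classes, not read as the relative abundance of the 2 transcripts.

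**Figure D2:**
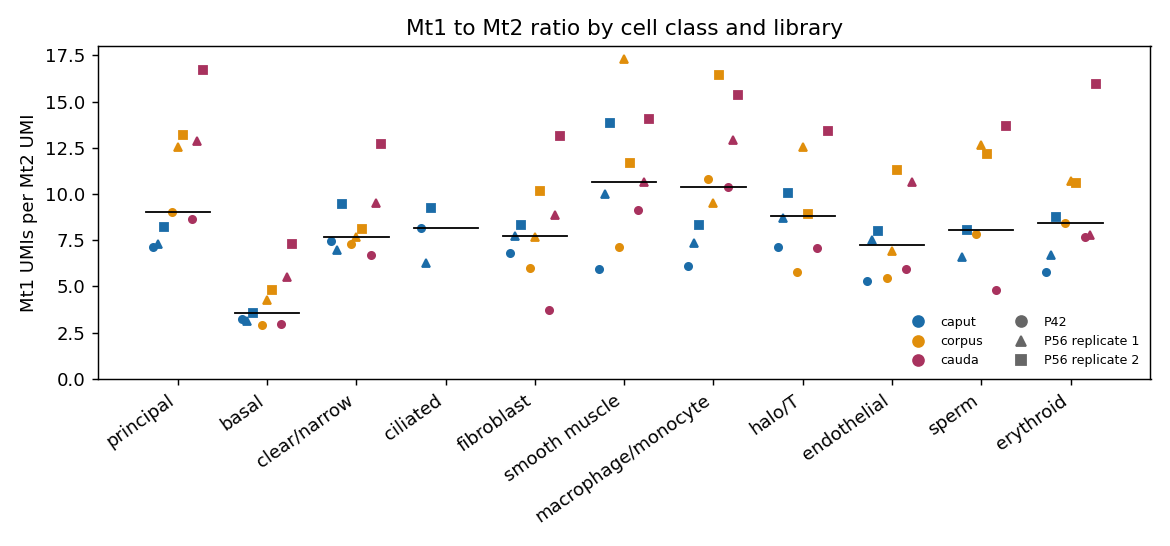
Ratio of Mt1 to Mt2 UMIs in each cell class, 1 point per library, coloured by segment and shaped by pool, with class medians as bars. Basal points run from 2.92 to 7.29 around a median of 3.58, and principal points from 7.14 to 16.7 around 9.0.

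Mt3 had its highest level in ciliated cells. The 3 caput libraries gave 535 (P42), 240 (P56 replicate 1) and 239 CPM (P56 replicate 2) in this class, and in the same segment the other classes averaged 4.36 to 13.1 CPM. A UMI occurred in 68.6% of the 140 ciliated cells and in 1.90% of erythroid cells (median depths 6507 and 3939.5 UMIs). Those few cells held 363 of the 1456 Mt3 UMIs of all kept cells. Within caput the difference from principal cells was 5.04 ± 0.19 (log2, edgeR adjusted p = 4.00e-25), and from erythroid cells 4.48 ± 0.26. Basal cells were called above principal cells too (1.13 ± 0.29, adjusted p = 0.000821), a call lost under 5 of the 11 alternatives. Over all segments they differed from erythroid cells by 0.35 ± 0.43, and so this overall difference is not read as expression. In cauda basal cells averaged 4.65 CPM, beside 0.294 CPM in principal cells. No erythroid library reached the basal mean there. The erythroid sums of the cauda held 137 (P42), 19 (P56 replicate 1) and 41 cells (P56 replicate 2), so they can miss so low a level. The source of Mt3 in cauda basal cells was not tested. Contrasts of ciliated cells, fitted on the caput libraries, and of erythroid cells were added after the data were seen.

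Against principal cells, 4 of the 10 genes were called higher in basal cells, where 9.81% of all genes were called higher (17.4% in either direction), and 2 in clear/narrow cells (8.75% higher, 18.8% in all). Within caput, ciliated cells had 3 higher (15.1%) and 1 lower (5.08%, 20.2% in all), the 3 being Mt1, Mt3 and Slc39a4. Over all segments, endothelial cells had 1 higher (12.8%) and 1 lower (9.20%, 22.0% in all) and fibroblasts 1 higher (11.9% higher, 15.3% in all). None was called in smooth muscle (9.96%), macrophage/monocyte (10.8%), halo/T (7.50%) or sperm cells (8.51%), with 1, 2, 4 and 2 members at an unadjusted p under 0.05 and 0, 0, 0 and 1 called by DESeq2. The median log2 difference of the 10 genes was 0.76 in basal and 0.40 in clear/narrow cells, beside -0.02 and -0.03 over all genes. With normalization factors set to 1 those medians of all genes became 0.35 and 0.36, and no called member changed sign.

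Slc30a1, the exporter of the plasma membrane and itself an MTF1 target, was highest in endothelial cells, the lining of blood vessels. They held 28.9 ± 12.6 CPM (n = 8), with the lowest library at 12.5 and the highest at 48.6 CPM, against 5.46 ± 1.30 in principal and 3.0 ± 2.84 CPM in erythroid cells (n = 9). No principal library exceeded 7.07 CPM. Some endothelial sums held few cells, such as 15 in corpus P56 replicate 2 and 25 in cauda P42, so their single values are imprecise. The difference was 1.84 ± 0.25 (log2) from principal cells (adjusted p = 1.83e-09) and 2.73 ± 0.38 from erythroid cells. Basal, clear/narrow and macrophage/monocyte cells, at 9.86, 9.07 and 8.18 CPM, were called above erythroid cells (1.36, 1.2 and 1.33), where 12.9%, 17.5% and 7.37% of all genes were called, but not above principal cells. Against erythroid cells the shares of all genes called were 14.5% in endothelial, 14.9% in ciliated (caput), 9.26% in fibroblast, 6.01% in sperm, 3.90% in smooth muscle and 2.90% in halo/T cells.

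Slc30a2, which loads zinc into vesicles, was highest in clear/narrow cells at 80.1 ± 23.9 CPM (n = 9). Leaving aside ciliated cells, which were found in caput only, basal cells followed with 48.3 ± 15.9 CPM. Principal (34.7) and erythroid cells (35.1) could not be told apart. Clear/narrow cells stood above principal cells by 0.86 ± 0.17 (adjusted p = 1.74e-05), which is under the fold limit, and above erythroid cells by 1.09 ± 0.22, which was called. In caput, ciliated cells held 76.1 ± 18.7 CPM (n = 3), beside 106 in clear/narrow, 66.4 in basal and 45.4 CPM in principal cells, and they differed from basal cells by 0.18 ± 0.23 (adjusted p = 0.614). In endothelial cells Slc30a2 was lower than in principal cells, by a log2 difference of -1.15 ± 0.27 (adjusted p = 0.000222). That call was lost under DESeq2 (-0.96), without P42 (-0.72) and with normalization factors set to 1 (-0.78).

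Slc30a7, the exporter of the Golgi, varied little. Its class means ran from 13.1 to 18.1 CPM in 9 classes and were 8.56 in ciliated and 8.25 in sperm cells. Clear/narrow cells lay below principal cells by -0.82 ± 0.19 (adjusted p = 0.000126), under the fold limit. Ciliated cells were called lower than principal cells within caput (-1.2 ± 0.46, adjusted p = 0.0474), on 9 UMIs.

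Slc39a4, the importer through which the intestine takes up dietary zinc, was called above erythroid cells (3.23 CPM) in basal and ciliated cells alone. Basal cells held 35.6 ± 30.4 CPM (n = 9) and ciliated cells 52.2 ± 19.9 CPM (n = 3), while no other class averaged over 7.90 CPM. Basal cells exceeded principal cells by 3.58 ± 0.26 (log2), a 12-fold difference (adjusted p = 1.98e-21), and within caput ciliated cells exceeded principal cells by 3.10 ± 0.33. In caput, where basal cells averaged 72.5 CPM, ciliated and basal cells differed by -0.56 ± 0.28 (adjusted p = 0.135; 20.8% of all genes called). A UMI was seen in 18% of basal, 27.1% of ciliated and 1.27% of erythroid cells.

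The wide SD of basal Slc39a4 came from a gradient along the duct. In caput its level was 91.8 CPM in P42, 51.4 in P56 replicate 1 and 74.2 in P56 replicate 2. In corpus it was 33.2, 20.4 and 20.5 CPM, and in cauda 7.40, 10.5 and 10.7 CPM, in the same order. The 3 segments did not overlap. Cauda differed from caput by -2.41 ± 0.26 (log2, adjusted p over the 3 segments = 2.18e-05), and corpus from caput by -1.31 ± 0.24. This call was kept under all 11 alternatives.

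Slc39a1, a widely expressed importer of the plasma membrane, spanned 10.1 CPM in ciliated to 35 ± 30.4 CPM in endothelial cells (n = 8). The fit did not separate endothelial cells from fibroblasts (-0.22 ± 0.23, adjusted p = 0.597) or call them against erythroid cells (0.55 ± 0.27, adjusted p = 0.149). Fibroblasts (30.5 ± 18.2 CPM) and basal cells (28.0 ± 8.86 CPM) differed from principal cells (14.0 ± 4.82 CPM) by 0.86 ± 0.17 and 0.64 ± 0.17, under the fold limit. Slc39a14, which carries zinc, iron and manganese, was scarce, with 618 UMIs in all kept cells and class means of at most 5.34 CPM. It was called higher than in principal cells in basal cells (1.40 ± 0.31, adjusted p = 0.000139) and fibroblasts (1.33 ± 0.34, adjusted p = 0.000834), but neither class was called against erythroid cells (0.86 ± 0.51 and 0.78 ± 0.52).

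**Figure D3:**
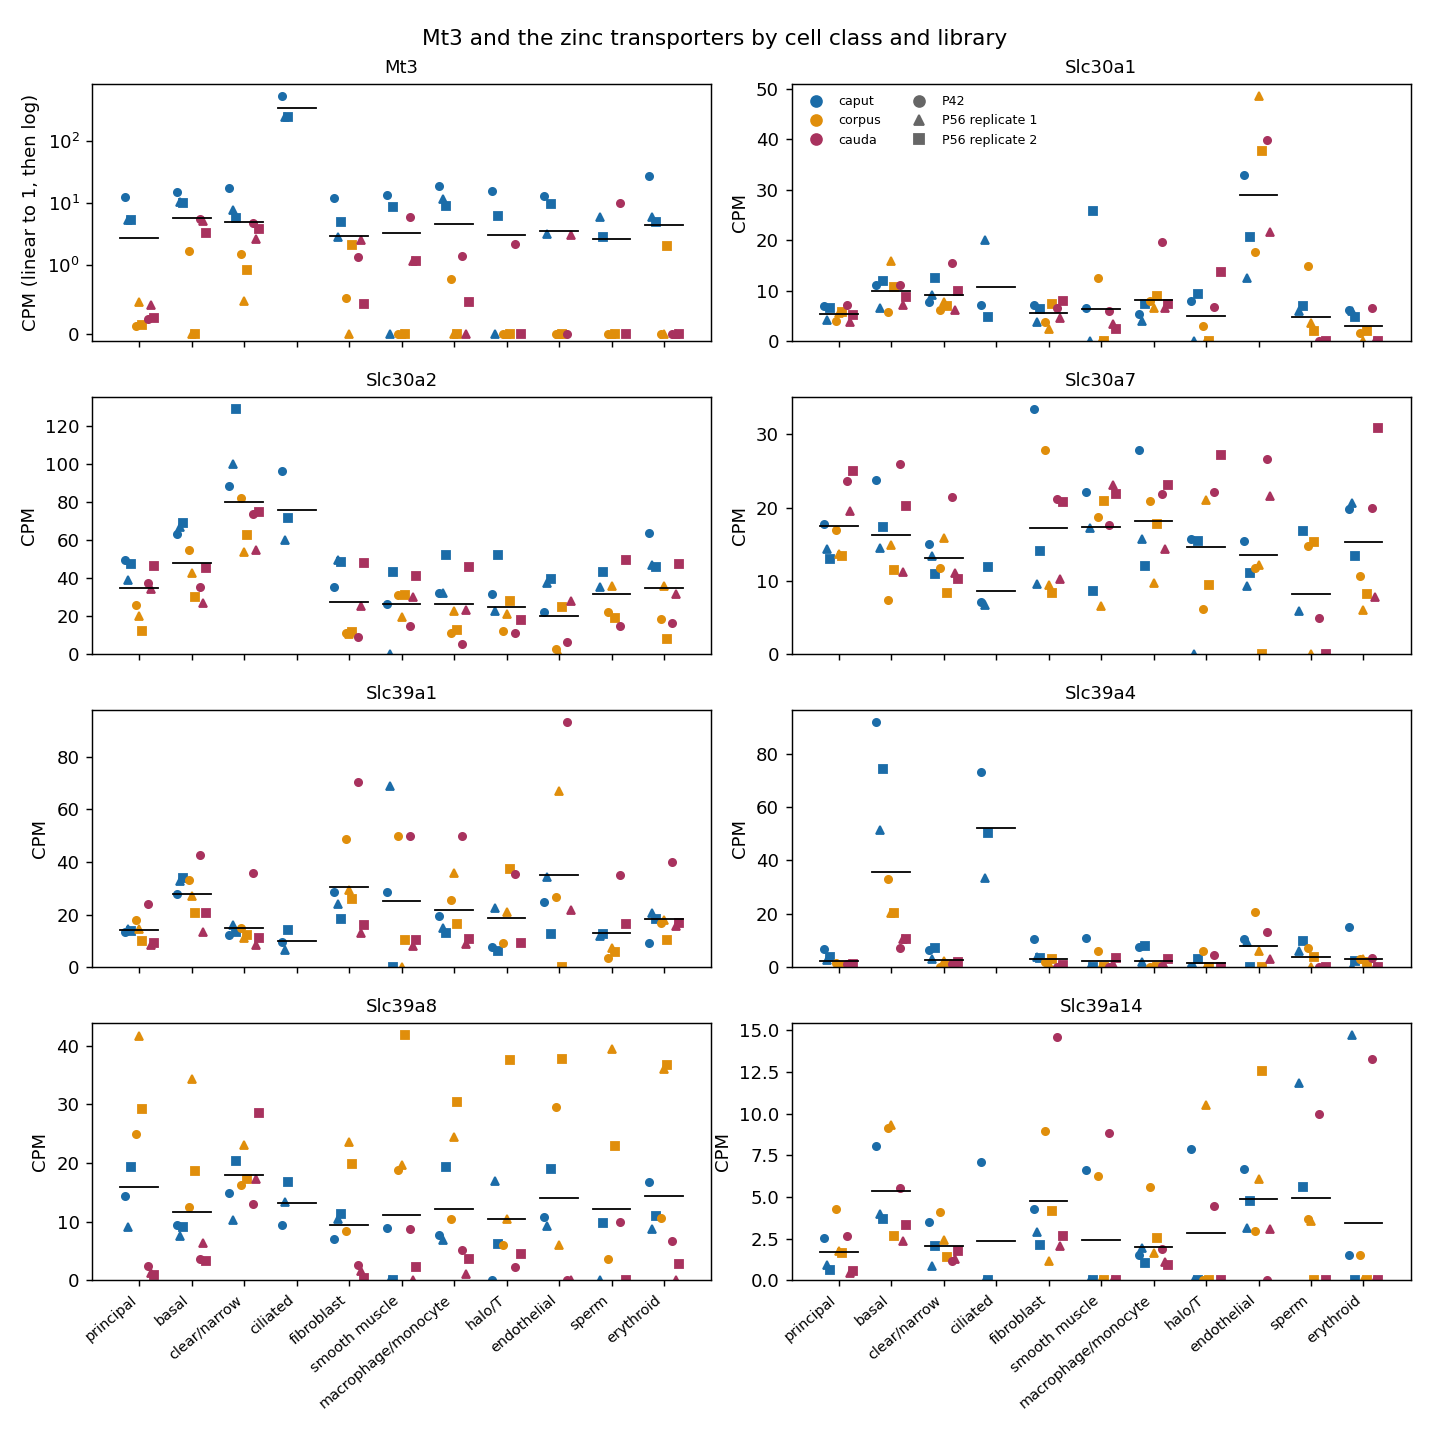
Level of Mt3 and the 7 zinc transporters in each cell class in CPM, 1 panel per gene; points are libraries, coloured by segment and shaped by pool, and bars are class means (the Mt3 axis is linear to 1 CPM and logarithmic above). Mt3 stands out in ciliated cells (338 CPM), Slc30a1 in endothelial cells (28.9 CPM), and Slc39a4 in basal (35.6 CPM) and ciliated cells (52.2 CPM).

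The comparison of segments asks where along the duct each gene is expressed. In principal cells 6 of the 10 genes were called over the 3 segments, where 34.7% of all genes were called. Mt1 was highest in cauda (10.2% of all genes), Mt3, Slc30a2 and Slc39a4 in caput (14.3%), and Slc39a8 and Slc39a14 in corpus (10.3%). Basal cells had 3 called (14.6%), clear/narrow cells 2 of 9 tested (13.4%), fibroblasts 4 of 8 (12.8%), macrophage/monocyte cells 3 of 8 (10.8%) and all cells together 3 of 10 (24.5%). None was called in smooth muscle (2 tested, 10.7%), halo/T (2 tested, 12.5%), endothelial (5 tested, 5.78%) or sperm cells (3 tested, 18.7%), with 2, 1, 3 and 1 at an unadjusted p under 0.05 against caput and 1, 0, 0 and 0 called by DESeq2.

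Mt1 had its highest level in cauda in every class fitted along the duct, and it was called in 4 of them. In principal cells the caput libraries had 1390 (P42), 1024 (P56 replicate 1) and 930 CPM (P56 replicate 2), the corpus libraries 2084, 2240 and 2555 CPM and the cauda libraries 1740, 4327 and 3618 CPM. Every corpus and cauda library lay above every caput library, and P42 cauda below the corpus. Cauda exceeded caput by 1.62 ± 0.43 (log2, adjusted p over segments = 0.0396) in principal cells, by 1.06 ± 0.25 in clear/narrow cells (adjusted p = 0.0250), by 1.72 ± 0.40 in fibroblasts and by 1.62 ± 0.29 in macrophage/monocyte cells. Basal cells, with 0.82 ± 0.34 (adjusted p = 0.185), were not called. Endothelial (1.57 ± 0.40), smooth muscle (1.51 ± 0.42), sperm (1.44 ± 0.44) and halo/T cells (1.15 ± 0.44) rose too, without a call and on fewer cells. The 4 calls were lost without either P56 pool, which leaves 2 pools, at estimates of 0.99 to 1.59. Clear/narrow cells also lost theirs under the stricter gate (0.94) and with normalization factors set to 1 (0.87), and every class but the principal one without the pool block. Erythroid barcodes were also lowest in caput, with 1479, 1126 and 1181 CPM in caput, 2023, 2313 and 2666 CPM in corpus and 2081, 4401 and 4106 CPM in cauda. Their P42 cauda value was not below their P42 corpus value, as it was in principal cells.

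The increase of Mt1 from caput to cauda was smaller in basal than in principal cells, by a log2 difference of -0.96 ± 0.26 (interaction, adjusted p = 0.0127), beside a median of -0.20 over all genes. It lost its call without mitochondrial genes (-0.68), under the looser gate (-0.68) and without either P56 pool. In this interaction 3 of the 10 genes were called in basal (5.63% of all genes) and 2 in clear/narrow cells (7.71%), and none in the other 6 classes (2.18% in fibroblast, 2.00% in endothelial, 0.816% in smooth muscle, 0.730% in macrophage/monocyte, 0.272% in sperm and 0.0787% in halo/T cells), where 0 to 3 were at an unadjusted p under 0.05 and none was called by DESeq2. Mt2 was called along the duct in fibroblasts alone, with 159 CPM in caput, 346 in corpus and 439 in cauda (cauda minus caput 1.69 ± 0.27, adjusted p = 0.00435), and this too was lost without either P56 pool (1.41 and 1.85). In principal cells its values were 149, 201 and 251 CPM (0.91 ± 0.31, adjusted p = 0.103). The Mt2 change in fibroblasts was not called different from that in principal cells (interaction 0.66 ± 0.29, adjusted p = 0.363). Clear/narrow cells passed the segment test for Mt2 (adjusted p = 0.0428) at a range of 0.84, under the fold limit. Over all segments fibroblasts were not called against erythroid cells for Mt2 (0.30 ± 0.15, adjusted p = 0.163).

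Other gene lists were set beside Mt1 along the duct. Of 14 immediate early genes, which respond within a short time to stimulation and to tissue dissociation, 11 were called in principal cells (34.7% of all genes). Of these, 10 were highest in cauda (10.2%), with Atf3 (3.91, log2 cauda minus caput), Fosb (3.17), Hspa1b (2.55) and Zfp36 (2.24) the largest. Hspa1b is a heat shock gene rather than an immediate early gene, and it is counted in this list throughout. The median of the list was 1.89, beside 0.03 over all genes. Of 8 glucocorticoid-responsive genes 5 were called, all highest in cauda, among them the kinase Sgk1 (3.66), Cdkn1a (2.81), the clock gene Per1 (2.10) and Tsc22d3 (1.29). Among the other classes in which Mt1 was called along the duct, 10 of the 14 immediate early genes were called in fibroblasts (12.8% of all genes). There were 5 in macrophage/monocyte (10.8%) and 0 in clear/narrow cells (13.4%), where the median log2 difference of cauda from caput was 0.57. Among those in which Mt1 rose without a call, there were 11 in sperm (18.7%), 9 in halo/T (12.5%), 1 in basal (14.6%), 1 in smooth muscle (10.7%) and 0 in endothelial cells (5.78%). In smooth muscle 3095 genes could be tested, in halo/T 3405, in sperm 3993 and in endothelial cells 5238, against 16130 in principal cells. A list gene that was not tested could not be called. Mitochondrial genes took 7.03% to 7.59% of the UMIs of a cell on average in caput and 13.6% to 25.6% in corpus and cauda. Between classes, 11 of the 14 immediate early genes were also called higher in basal than in principal cells (9.81% of all genes), led by Dusp1 (1.83) and Junb (1.45). So were 4 of the 8 glucocorticoid-responsive genes, led by Zbtb16 (2.29). The counts were 2 and 1 in clear/narrow cells (8.75%), where Mt1 was highest, and 6 and 3 in endothelial cells (12.8%), where it was lowest. They were 6 and 1 in macrophage/monocyte (10.8% in either direction) and 2 and 2 in fibroblast cells (11.9%), all higher than in principal cells. The part of these lists in the Mt1 and Mt2 results was not tested.

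Slc39a8, an importer of zinc and manganese, had the clearest change of pattern between classes. In principal cells it was 14.4, 9.04 and 19.4 CPM in caput (P42, P56 replicate 1, P56 replicate 2), 24.9, 41.6 and 29.2 CPM in corpus, and 2.43, 1.2 and 0.963 CPM in cauda. The segments did not overlap, and cauda fell to a mean of 1.53 CPM (cauda minus corpus -4.50 ± 0.40, adjusted p over segments = 0.000207). The segments were called to differ as well in basal cells, fibroblasts and macrophage/monocyte cells, with the highest mean in corpus. Corpus exceeded caput by 1.48 ± 0.35 in basal cells (adjusted p = 0.0118), by 0.82 ± 0.42 in fibroblasts (0.278) and by 0.98 ± 0.48 in macrophage/monocyte cells (0.257). These calls were lost without either P56 pool, that of basal cells also under the stricter gate, and that of macrophage/monocyte cells under 6 of 11 alternatives. Erythroid barcodes showed 10.7 to 36.8 CPM in corpus and at most 6.64 CPM in cauda.

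Clear/narrow cells kept Slc39a8 in the cauda. Their levels were 13.1, 17.3 and 28.6 CPM there, beside 15.0, 10.4 and 20.3 CPM in caput and 16.3, 23.2 and 17.3 CPM in corpus, so the 3 segments overlapped. In the cauda every clear/narrow library lay above every principal and erythroid library. The change from caput to cauda differed from that of principal cells by 3.75 ± 0.47 (log2 interaction, adjusted p = 1.92e-08), and this held under all 10 alternatives. In basal cells the difference was 2.52 ± 0.58 (adjusted p = 0.00266), with 3.70, 6.45 and 3.29 CPM in cauda, and its call was lost without either P56 pool.

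**Figure D4:**
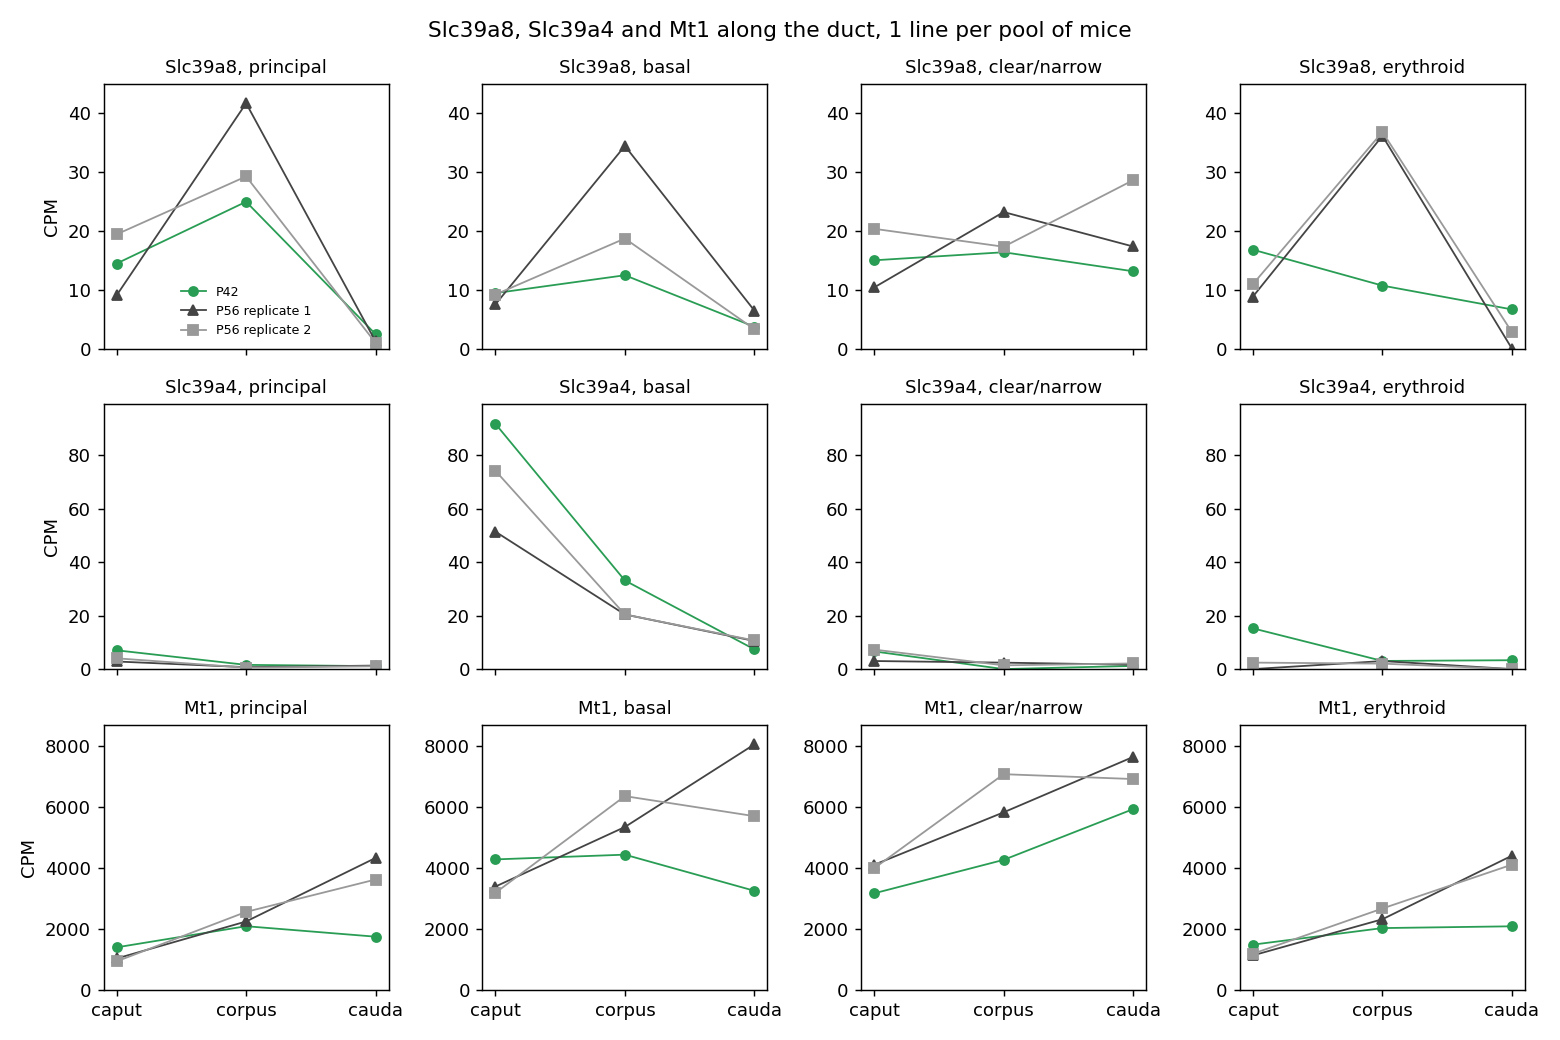
Level of Slc39a8, Slc39a4 and Mt1 (rows) in principal, basal, clear/narrow and erythroid cells (columns) in caput, corpus and cauda, in CPM, 1 line per pool of mice. Slc39a8 falls to 0.963 to 2.43 CPM in cauda principal cells and stays at 13.1 to 28.6 CPM in cauda clear/narrow cells, and basal Slc39a4 falls from 51.4 to 91.8 CPM in caput to 7.40 to 10.7 CPM in cauda.

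Mt3 was highest in caput wherever it was called. Principal cells averaged 7.73 CPM in caput, 0.240 in corpus and 0.294 in cauda (corpus minus caput -4.70 ± 0.53, adjusted p = 0.000209). Caput is also the segment that holds the ciliated cells, and erythroid barcodes had 4.86 to 27.4 CPM there and at most 2.04 CPM elsewhere. In cauda, basal cells averaged 4.65 and clear/narrow cells 3.75 CPM, and their change from caput to cauda was less negative than that of principal cells by 2.87 ± 0.59 and 2.77 ± 0.60 (adjusted p = 0.000797 and 0.00111), 2 calls lost without P56 replicate 2 (3.0 and 2.35). Slc30a2 dipped in the corpus of principal cells (45.4, 19.5 and 39.4 CPM from caput to cauda, corpus minus caput -1.18 ± 0.26, adjusted p = 0.0120). It was called in the same way in fibroblasts (-1.85 ± 0.39), and both calls were lost without either P56 pool. Over all segments neither class was called against erythroid barcodes (0.23 ± 0.22 in principal cells and -0.34 ± 0.24 in fibroblasts). Macrophage/monocyte (39.0, 15.6 and 24.7 CPM) and endothelial means (33.0, 9.36 and 17.2 CPM) were also lowest in corpus, without a call. The part of free RNA in the Slc30a2 dip was not tested. In principal cells Slc39a4 and Slc39a14 were called at mean levels of 0.95 to 4.64 CPM, close to those of erythroid barcodes. The Slc39a4 call was lost without P56 replicate 2, and that of Slc39a14 under 5 alternatives, among them DESeq2 and leaving out either P56 pool. Slc30a1, Slc30a7 and Slc39a1 were called along the duct in no class. Slc30a7 passed the segment test in principal cells (15.1, 14.7 and 22.7 CPM from caput to cauda, adjusted p = 0.0174). Its cauda minus caput difference there was 0.74 ± 0.19, under the fold limit. In all cells together that difference was 0.70 ± 0.20 (adjusted p over segments = 0.0461).

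The comparison of ages sets the P56 pools against the single P42 pool within a segment, with the spread taken from the P56 pairs, so a difference between ages and one between pools of mice cannot be told apart. Each fold is relative to the median gene: with normalization factors set to 1, the median over all genes moved by -0.37, -0.50 and -0.75 (log2) in caput, corpus and cauda principal cells, and the share of called genes that were higher at P56 fell in cauda from 36.7% to 4.31%, in corpus from 27.5% to 4.02% and in caput from 40.4% to 9.79%. In cauda principal cells 2 of the 10 genes were called, both higher at P56, where 8.02% of all genes were called higher and 21.9% in either direction. None was called in caput (1.07%) or corpus (5.00%), with 2 and 3 members at an unadjusted p under 0.05 and none called by DESeq2. In all cells together, where numbers of cells per class and RNA per cell cannot be told apart, 1 was called in caput (3.31%), 1 in corpus (10.6%) and 5 in cauda, 3 higher (12.9%) and 2 lower (19.1%, 32% in all). The change with age differed between cauda and caput for 3 of the 10 genes in principal cells (16.0% of all genes), 5 in all cells (21%), 1 in basal (1.80%) and none of 9 in clear/narrow cells (2.14%), where edgeR put 1 at an unadjusted p under 0.05 and DESeq2 was not run. With the pool as a block the counts were 3 (20.5% of all genes), 5 (27.5%) and 1 (3.52%), and in clear/narrow cells, where the share of all genes called rose to 6.50%, Slc39a1 was called (-1.75 ± 0.52, adjusted p = 0.0316).

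Mt1 was higher in cauda at P56. In erythroid barcodes of the cauda, too, the values given above were higher in each P56 pool than in P42, and they were not tested between ages. Cauda principal cells held 1740 CPM at P42 and 4327 and 3618 CPM at P56, a log2 difference of 1.97 ± 0.25 (adjusted p = 0.000539), or 1.19 with factors set to 1. Caput gave -0.14 ± 0.23 and corpus 0.74 ± 0.24 (adjusted p = 0.804 and 0.10). All cells of the cauda gave 1.68 ± 0.26, which fell under the fold limit with factors set to 1 (0.92), and basal cells of the cauda, with 3248 CPM at P42 and 8057 and 5699 CPM at P56, 1.72 ± 0.32 (adjusted p = 0.00362), or 1.1 with factors set to 1, which was still called. Clear/narrow cells of the corpus, with 4264 CPM at P42 and 5825 and 7078 CPM at P56, were called (1.11 ± 0.27, adjusted p = 0.0480), but not with factors set to 1 (0.59, adjusted p = 0.0787), a stricter gate (adjusted p = 0.0778) or under 20% mitochondrial UMIs (0.93, adjusted p = 0.138). With factors set to 1 the median gene of this comparison moved to -0.51 and the share of called genes that were higher fell from 55.1% to 4.07%. Clear/narrow cells of the cauda gave 0.94 ± 0.26, under the fold limit, or 0.29 with factors set to 1. The basal and clear/narrow comparisons and those of the age change between segments were added after the data were seen. Between ages, 1.0%, 1.87% and 8.0% of all genes in basal and 2.01%, 1.76% and 11.1% in clear/narrow cells were called, in caput, corpus and cauda. For Mt2 in cauda principal cells the values were 201 CPM at P42 and 336 and 216 CPM at P56, and the call (1.25 ± 0.31, adjusted p = 0.0143) was lost with factors set to 1 (0.46).

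Immediate early genes moved with age as well. In caput principal cells 11 of 14 were called lower at P56, led by Fosb (-2.67) and Dusp1 (-2.42), where 1.07% of all genes were called in either direction. In cauda (21.9% of all genes) Atf3 (1.85) and Btg2 (1.17) were higher while Dusp1 (-2.56) and Egr1 (-1.10) were lower. The part of immediate early genes in the Mt1 difference was not tested.

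Among the transporters, Slc39a1 was lower in all cauda cells at P56, with 43.3 CPM at P42 and 10.1 and 11.9 CPM at P56 (-1.21 ± 0.21, adjusted p = 0.00259). P42 cauda was the highest library for this gene in principal, basal, clear/narrow, fibroblast, macrophage/monocyte, endothelial, sperm and erythroid cells, at 24.1 to 93.2 CPM. In clear/narrow cells of the cauda Slc39a1 was called lower as well, with 35.8 CPM at P42 and 8.49 and 11.3 CPM at P56 (-1.22 ± 0.37, adjusted p = 0.0373), but not with DESeq2 (adjusted p = 0.405), a stricter or looser gate (adjusted p = 0.0701 and 0.0847) or under 20% mitochondrial UMIs (-0.49, adjusted p = 0.567). Slc39a14 was lower too in all cauda cells (4.93 against 0.981 and 1.06 CPM, -1.51 ± 0.28). Slc30a2 (1.75 ± 0.24) and Slc39a4 (1.70 ± 0.36) were called higher in all cauda cells, and Slc39a8 in all corpus cells (1.40 ± 0.30), but with factors set to 1 these were 0.99, 0.94 and 0.76 and none was called. P42 cauda held 88 basal and 164 clear/narrow cells, with 40.2% of its cells in no class. The P56 cauda libraries held 472 and 332 basal and 501 and 417 clear/narrow cells. The part of cell numbers in these differences was not tested. Mt3 was lower in all caput cells at P56 (24.7 CPM against 7.59 and 10.0 CPM, -1.12 ± 0.23, adjusted p = 0.0386), a call that DESeq2 did not make. P42 caput supplied 64 of the 140 ciliated cells and the P56 pools 20 and 56.

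**Figure D5:**
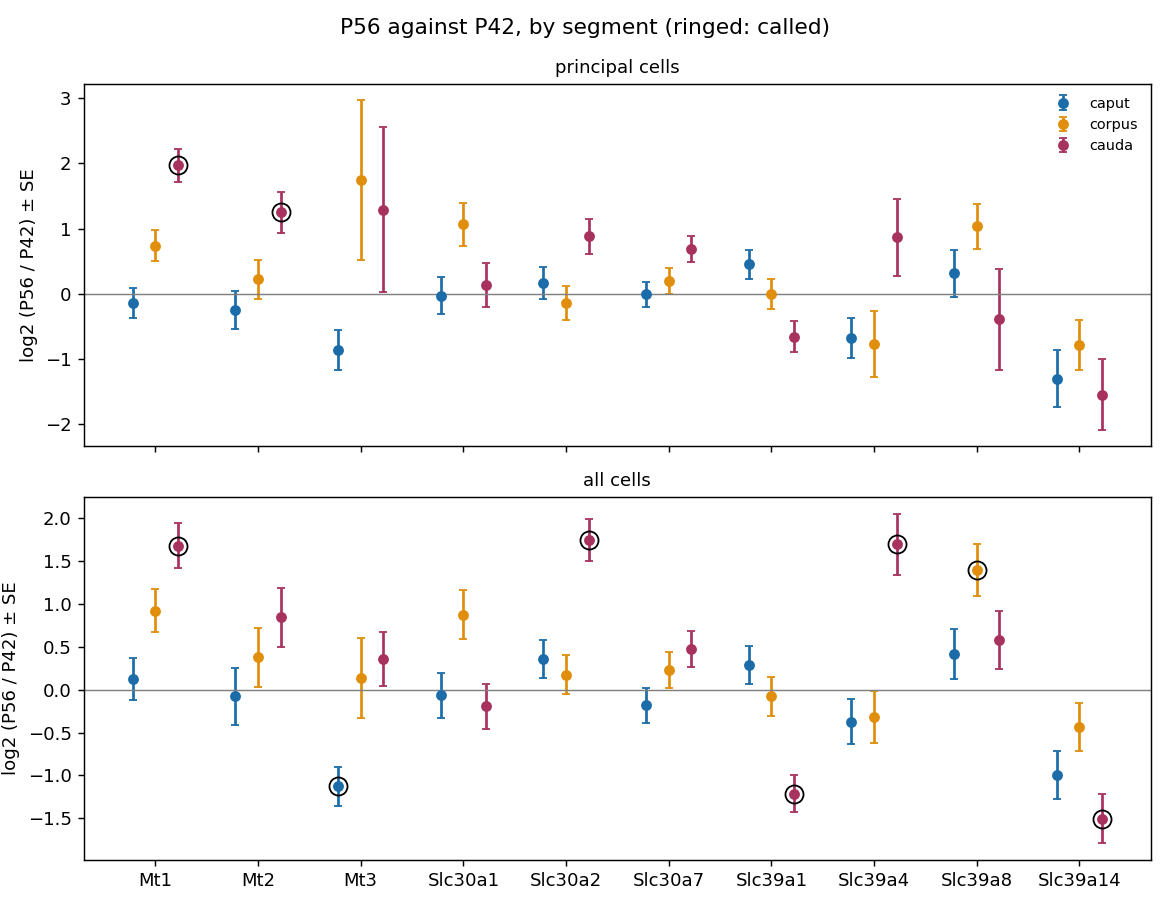
Difference between P56 and P42 for the 10 genes in caput, corpus and cauda, in principal cells (top) and all cells (bottom), as log2 fold change relative to the median gene with standard errors; rings mark called genes. Mt1 is called in cauda in both panels, at 1.97 in principal cells and 1.68 in all cells.

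The other genes of zinc and metal transport were counted in the same way. Of 17 further Slc30a and Slc39a genes 15 were in the matrix and 12 could be tested in principal cells, where 2 were called along the duct (34.7% of all genes), both highest in caput: the vesicular exporter Slc30a3 (cauda minus caput -2.46) and the importer Slc39a10 (corpus minus caput -1.85). Slc30a3 was also higher than in principal cells in basal cells (2.20 ± 0.34) and, in the fit over all segments, in ciliated cells (3.5 ± 0.52, caput libraries only). Slc39a10 was lower in clear/narrow (-1.27 ± 0.16) and higher in endothelial cells (1.30 ± 0.17). Among 6 testable genes of other metals, the iron exporter Slc40a1 (3.18) and the iron importer Slc11a2 were called highest in corpus.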

How the data were processed

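The deposited table holds raw UMI counts per gene and cell barcode, with no further normalization by the authors, who trimmed reads with fastp, took cell barcodes with UMI-tools, aligned to GRCm38.p6 with STAR 2.7.3a, counted exonic reads per gene and collapsed UMIs within a gene. The members and all lists were chosen with earlier results of these data known.

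Cells with 300 to 4000 genes, at most 20000 UMIs and under 50% mitochondrial UMIs were kept. A cell entered a class with at least 5 UMIs from at least 3 of its markers, at 3 or more times the marker share of its library. Principal cells needed an enrichment of 0.75 and no other list near its limit. Cells passing 2 or more gates (2391), which can hold doublets, and cells in no class (8220) were left out of the classes. No doublet caller was run. Sums of under 10 cells and 5 globin genes were dropped, and erythroid cells were kept out of "all cells".

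UMIs were summed per library and class and fitted with edgeR 4.0.16 (TMM, filterByExpr, quasi-likelihood test, Benjamini-Hochberg adjustment over all genes, R 4.3.3). Segments were fitted with the pool as block, ages with 1 mean per age in every segment, and classes with the library as block (ciliated cells on the 3 caput libraries alone). DESeq2 1.42.0 was an alternative. The 3 libraries of a pool share mice (P42 and the first P56 pool, both numbered 1, do not): deviations from segment means in principal cells correlated at 0.172 to 0.689 within a pool (9 of 9 pairs over 0.1) and at -0.663 to 0.495 between pools. Libraries held 23114756 to 50655384 UMIs. In simulated counts 200 genes were changed 4-fold, with no other difference between libraries than depth and random spread. Of these genes, 83.0% were recovered for principal segments, 77.5% for endothelial against principal cells and 65.0% for age in cauda principal cells. The share was 61.0% for ciliated against principal cells in caput (5 false calls) and 58.5% for age by segment in principal cells with the pool block. Smaller changes were not simulated. The text names the 10 genes, for each other list the counts and the 4 called genes with the largest change, and for each of the 10 genes the 3 most similar genes, of which 1 is not reported here.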

Additional observations from a re-analysis of the deposited data

Results flagged for a closer look

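In 14 cases the effect of 1 factor differed between groups by a test of the difference itself. The age tests below (P56 minus P42 in cauda, minus the same in caput) were added after the data were seen, and all rest on the single P42 pool, whose cauda library stood apart. They called 16.0% of all genes in principal cells, 21% in all cells, 1.80% in basal and 2.14% in clear/narrow cells. In clear/narrow cells edgeR without a block called none of the 9 genes tested (1 of 9 at an unadjusted p under 0.05).

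In principal cells the age difference was larger in cauda than in caput for Mt1, by 2.11 ± 0.33 (log2, adjusted p = 0.00470), and for Mt2, by 1.5 ± 0.42 (adjusted p = 0.0425). For Slc39a1 it was -1.11 ± 0.33 (adjusted p = 0.0499). This test called 11 of 14 immediate early genes (median 1.21) and 3 of 8 glucocorticoid-responsive genes in principal cells with the sign of Mt1. The counts were 7 and 2 in all cells, 6 and 2 in basal and 5 and 2 in clear/narrow cells. A positive value can come from a fall in caput or a rise in cauda. In caput principal cells 11 of 14 immediate early genes were called lower at P56, where Mt1 gave -0.14 ± 0.23. In cauda Mt1 was called higher, as were Atf3 and Btg2, while Dusp1 and Egr1 were called lower. The part of these lists in the Mt1 result was not tested. In all cells the age difference in cauda minus that in caput was 1.56 ± 0.35 for Mt1, 1.48 ± 0.39 for Mt3, 1.39 ± 0.32 for Slc30a2, -1.5 ± 0.31 for Slc39a1 and 2.07 ± 0.44 for Slc39a4. In basal cells it was 1.88 ± 0.42 for Mt1 (adjusted p = 0.0298). These 9 calls were also made with the pool as a block. That edgeR fit also called Slc39a1 in clear/narrow cells (-1.75 ± 0.52, adjusted p = 0.0316), where it called 6.50% of all genes.

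Between classes, the change from caput to cauda differed from that of principal cells for 5 pairs of gene and class. In basal cells the differences were -0.96 ± 0.26 for Mt1, 2.87 ± 0.59 for Mt3 and 2.52 ± 0.58 for Slc39a8, and in clear/narrow cells they were 2.77 ± 0.60 for Mt3 and 3.75 ± 0.47 for Slc39a8. In both classes the median over all genes was below 0, at -0.20 and -0.23, and under DESeq2 it was 0.00 and 0.02. Principal cells and erythroid barcodes had their highest mean in the same segment for Mt1, Mt3 and Slc39a8. Their lowest mean lay in the same segment for Mt1 and Slc39a8. The part of free RNA in the differences between classes was not tested.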

How the results depend on the processing

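Of 253 recomputed counts of called genes over 29 comparisons, 186 stayed within 1.5 times and 67 moved, and of 444 recomputed values of single genes over 53 results, 370 kept their direction and call, 74 lost the call and none changed sign. The cause was not tested unless stated. Depth limits genes such as Slc39a14 (618 UMIs) and classes of few cells. Normalization factors set to 1 were added after the data were seen.

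Counts are of the 10 genes, as reported and then recomputed. With DESeq2 they went from 0 to 1 for segments in smooth muscle, 1 to 0 for age in all caput cells, 1 to 2 for fibroblasts and 0 to 1 for sperm against principal cells. With factors set to 1 they became 1 for segments in clear/narrow cells, 2 and 1 for age in caput and corpus principal cells, 2 each for age in all caput and cauda cells, 4 for clear/narrow, 2 for fibroblast and 4 for endothelial against principal cells. With no filter on low counts they became 1, 5 and 1 for segments in smooth muscle, macrophage/monocyte and sperm cells, and 1 for clear/narrow, 2 for fibroblast, 1 for smooth muscle, 2 for halo/T and 1 for sperm against principal cells. Without mitochondrial genes clear/narrow against principal cells gave 1. The looser gate gave 1 for sperm against principal cells. The stricter gate gave 1, 0 and 1 for segments in basal, clear/narrow and macrophage/monocyte cells, and 4 for clear/narrow, 0 for fibroblast, 1 for smooth muscle and 1 for sperm against principal cells. Under 20% mitochondrial UMIs the counts were 1 each for segments in clear/narrow and sperm cells, and 1 for clear/narrow, 0 for fibroblast and 1 for halo/T against principal cells.

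Without the replicate block of the paired pools, segments gave 1 in clear/narrow, 2 in fibroblast and 1 in macrophage/monocyte cells. Without the block, basal gave 2, clear/narrow 1, fibroblast 0 and sperm 1 against principal cells. The clear/narrow, fibroblast and sperm counts also moved under other settings given above, so they depend on more than the block. Where else the fit without the block was run, it left the counts within 1.5 times. No paired analysis was possible for the ages within a segment because the P42 and P56 pools hold different mice. The difference of the age change between cauda and caput was refitted with the pool as block after the data were seen (2 residual degrees of freedom). This kept the calls in principal, basal and all cells and moved clear/narrow cells from 0 to 1. The share of all genes called in clear/narrow cells rose from 2.14% to 6.50%, and in basal cells from 1.80% to 3.52%.

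Leaving out 1 pool at a time gave 2 to 7 for segments in principal, 1 to 4 in basal, 0 to 3 in clear/narrow, 0 to 4 in fibroblast, 0 to 2 in smooth muscle, 0 to 3 in macrophage/monocyte, 0 to 2 in halo/T, 0 to 2 in endothelial, 0 to 1 in sperm and 1 to 7 in all cells. Against principal cells it gave 3 to 4 for basal, 1 to 2 for clear/narrow, 1 to 2 for fibroblast, 0 to 1 for macrophage/monocyte, 0 to 2 for halo/T, 1 to 4 for endothelial and 0 to 1 for sperm cells, and for the interactions 1 to 10. The highest segment and interaction counts came without P42 and the lowest without a P56 pool. Sperm segments without P56 replicate 2 could not be fitted, and the age comparisons without a pool have no residual degrees of freedom.

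The share of called genes that were higher moved with the factors set to 1 from 56.4% to 80.9% in basal, 46.6% to 74.2% in clear/narrow, 78.0% to 92.1% in fibroblast, 58.2% to 84.8% in endothelial and 71.5% to 92.9% in ciliated against principal cells (with DESeq2 57.3% in clear/narrow, 89.5% in fibroblast, 78.4% in endothelial and 90.6% in ciliated cells). In halo/T it moved from 66.2% to 96.7% (97.7% with DESeq2) and in smooth muscle cells from 76.9% to 97.3% (96.7%). For the interactions DESeq2 moved it from 32.6% to 56.5% in basal, 37.4% to 63.7% in clear/narrow, 15.4% to 65.8% in endothelial, 25.3% to 45.6% in fibroblast and 18.4% to 44.4% in sperm cells. For age in all cells, factors set to 1 moved it from 25.6% to 7.40% in caput, 26.0% to 2.51% in corpus and 40.2% to 10.9% in cauda, and in basal cauda cells from 52.1% to 6.70%.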

Other observations

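The genes whose levels followed each of the 10 most closely were described by Pearson's r of log2(CPM + 1) over 77 sums of a class in a library (9 classes, without ciliated and erythroid cells), among 7560 genes of at least 10 CPM on average that are neither metallothioneins nor zinc transporters. The points share libraries, depth and any free RNA, so these values are a description. Mt1 and Mt2 had 0.82 with each other. Outside these families, Mt1 was followed by the surface protein gene Ly6e (0.78), the histone gene H3f3b (0.77) and Arrdc4 (0.76). Mt2 was followed by Wls (0.76), which carries Wnt proteins to the cell surface, and by H3f3b (0.75). Mt3 had Iah1 (0.76), Hs3st3b1 (0.75) and Armcx6 (0.75), and its highest class was not among these sums.

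Slc30a1 was closest to Rtl8a (0.71), Cpne8 (0.71) and Bik (0.68). Slc30a2 was closest to Mmut (0.78), the desmosome gene Dsg2 (0.74) and Vsig1 (0.72), and Slc39a4 to the Notch ligand gene Jag2 (0.74), Lmo1 (0.70) and Agrn (0.70). Vsig1 and Lmo1 are markers of the gates. Slc39a8 followed the gap junction gene Gjb1 (0.66), Spint4 (0.65) and Spint5 (0.65), and Slc39a1 followed Zfp422 (0.75), Sesn3 (0.70) and Top2b (0.68). Slc30a7 (0.57 with Hmgxb4, 0.57 with Mob1a and 0.56 with Myd88) and Slc39a14 (0.65 with Tmem161a, 0.65 with Trim24 and 0.64 with Upf3a) had weaker matches.

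Cells outside the classes carried the genes as well. Cells in no class held 16.0% of all Mt1 UMIs, 17.7% of Mt3, 22.9% of Slc39a1 and 12.6% of Slc39a8 UMIs. Of the 133 Mt3 UMIs in cells that passed 2 or more gates, 74 were in the 177 of these cells that also passed the ciliated gate.

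Within a class, Mt1 was spread over many cells. In basal cells the median cell had 33.3 Mt1 UMIs per 10000 in caput, 46.3 in corpus and 61.1 in cauda, and the tenth of cells with the most Mt1 UMIs held 22.9% to 27.6% of them. In principal cells the medians were 9.23, 19.2 and 31.0 per 10000.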
